A study of Mus musculus with 4 samples.

Results

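The sites of 2 transcription factors, Insm1 and Foxa2, were compared by how strongly each ranked within its own chromatin immunoprecipitation sequencing (ChIP-seq) list. ChIP-seq recovers the DNA bound by a protein with an antibody and sequences it, and a site is a stretch where the recovered DNA piled up. Sites of 60 bp or less were dropped, which left 17382 Insm1 sites and 28108 Foxa2 sites, or 45490 of the 59673 sites of the 3 factors mapped in the series. The third factor, Neurod1, with 14183 sites, served as a further readout. All samples came from an established line of mouse pancreatic beta cells that was started from islets of RIP1-Tag2 transgenic animals aged 6 weeks, on a mixed C57BL/6, 129/ola and CBA/J background. In RIP1-Tag2 mice the transgene puts a viral oncogene under the insulin promoter, and every group carries it. Cells were used untreated at passages 10 to 15, in medium with 25 mmol/l glucose, and the groups differ only in the antibody, which was raised against Insm1, Foxa2 or Neurod1, or was control IgG. Each group is 1 sample with 1 list, and no IgG list was used here. No spread between replicates can be had, and all values below describe these lists. Intervals are 95% and cover counting error only.

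Insm1 is a zinc finger protein found in endocrine and neuronal cells, where it is known mainly as a repressor that is needed for endocrine differentiation and for the mature state of beta cells. Foxa2 is a forkhead factor of the endoderm, known as a pioneer that can bind its sites in closed chromatin and needed in beta cells for insulin secretion. Neurod1 is a basic helix-loop-helix activator that binds E-boxes, among them those of the insulin promoter. The series is about Insm1 acting together with these other factors. The comparison made here asks whether strong sites of one factor are also strong sites of the other, and what marks the places where they are not. Positions are those of the mm9 build as deposited. Sites are given by position alone, because a genome of that build was not used here.

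The deposited score of a site is a whole number of unknown definition, and the read depth behind it is unknown. Scores were therefore converted to percentiles within each list, where 100 is the strongest site. Scores ran from 76 to 3005 with a median of 130 among Insm1 sites, and from 19 to 11035 with a median of 42 among Foxa2 sites. The width limit removed 71 Insm1 sites with a median score of 153 and 271 Foxa2 sites with a median score of 35. Just inside the limit, at 61 to 70 bp, lay 55 Insm1 sites with a median score of 123 and 343 Foxa2 sites with a median score of 28. The highest-scoring dropped Foxa2 site reached 404994 and the highest-scoring Foxa2 site of 61 to 70 bp reached 11035, so that a few narrow sites held extreme scores on both sides of the limit. Wider sites tended to score higher in both lists, with a Spearman's rho of percentile and width of 0.19 for Insm1 and 0.19 for Foxa2, a description across sites.

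An Insm1 and a Foxa2 site were called shared when they overlapped by at least 1 bp. No site overlapped more than 1 site of the other list, and the shared sites formed 9768 pairs. These are 56.2% of Insm1 sites (55.5 to 56.9%, Wilson) and 34.8% of Foxa2 sites (34.2 to 35.3%). The members of a pair differed in where they stood in their lists. The Insm1 member had a median percentile of 59.9 and a median score of 146, and the Foxa2 member had a median percentile of 73.8 and a median score of 73. Unshared sites had median percentiles of 38.6 for Insm1 and 39.0 for Foxa2. Shared Insm1 sites were 187 bp wide at the median and unshared ones 161 bp, against 211 and 193 bp for Foxa2.

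The ranks of the 2 factors within a pair went together only loosely. Across the 9768 pairs, Spearman's rho of the Insm1 and Foxa2 percentiles was 0.34, a description over sites that share 2 libraries. The Insm1 percentile minus the Foxa2 percentile is called the lead. It had a median of -8.52 points, with quartiles of -32.0 and 9.10 points. The percentiles lay within 10 points of each other in 2700 pairs (27.6%, 26.8 to 28.5%). Foxa2 was ahead by 50 points or more in 1221 pairs (12.5%, 11.9 to 13.2%) and Insm1 in 436 pairs (4.46%, 4.07 to 4.89%). This preponderance of Foxa2 depended on the reference for the percentiles. When percentiles were taken over the shared pairs alone, Foxa2 was ahead by 50 points in 7.01% and Insm1 in 7.57%. Both factors stood in their top decile in 703 pairs (7.20%) and both in their bottom decile in 51 pairs (0.52%). Members of pairs were more frequent in the top deciles to begin with. The Insm1 member was in its top decile in 1422 pairs and in its bottom decile in 646. For the Foxa2 member these numbers were 2288 and 421.

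**Figure D1:**
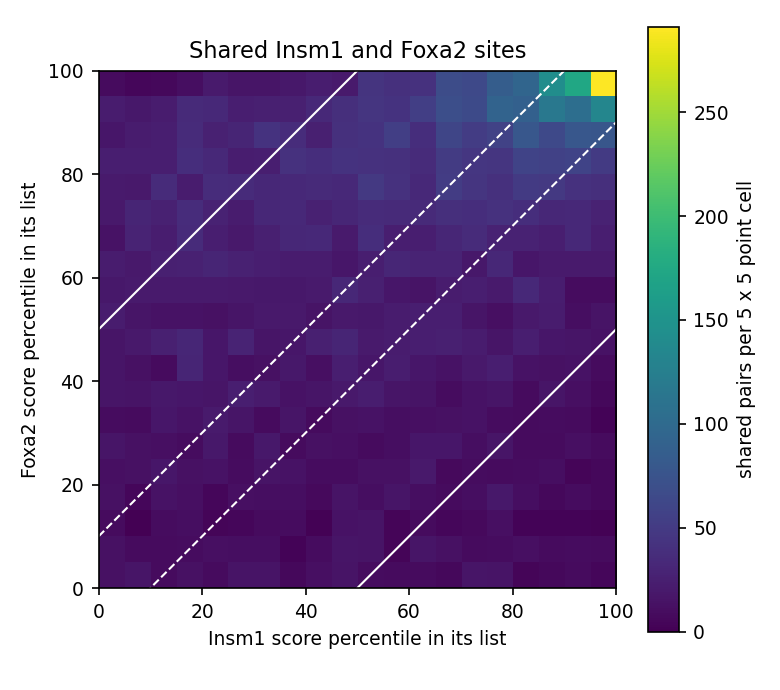
Number of shared pairs by the score percentile of the Insm1 member (x axis) and of the Foxa2 member (y axis), in cells of 5 by 5 points. Dashed lines mark a lead of 10 points and solid lines a lead of 50 points to either side; pairs crowd in the top right corner, and 1221 pairs lie above the upper solid line against 436 below the lower one.

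The strongest concordant sites were found in all 3 ChIP experiments. By the rule of the highest lower percentile, the first lay at chr17:4641152-4641337, where the Insm1 site ranked 8 (score 1302) and the Foxa2 site ranked 10 (score 1028). The second lay at chr16:69980199-69980389, where Insm1 ranked 21 and Foxa2 ranked 3. The third lay at chr4:149513251-149513413, with ranks of 10 and 41. The remaining 2 were at chr3:31943625-31943795, with ranks of 38 and 11, and at chr5:23584737-23584905, with ranks of 29 and 68. A Neurod1 site overlapped each of the 5, at Neurod1 percentiles of 94.2, 98.3, 99.97, 99.94 and 99.96. The Insm1 and Foxa2 summits of these pairs lay 24, 17, 53, 1 and 34 bp apart.

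The pairs where Insm1 was furthest ahead join a strong Insm1 site to a Foxa2 site at the floor of its list, as the choice by lead requires. At chr11:51781044-51781209 the Insm1 score was 441 (percentile 98.0) and the Foxa2 score was 20 (percentile 2.50). At chr1:37947301-37947418 the scores were 415 and 20, and at chr5:38430389-38430549 they were 361 and 20. The last 2 were at chr1:164832076-164832273 (407 and 21) and at chr5:108494531-108494707 (293 and 19). All 5 held a Neurod1 site, at Neurod1 percentiles between 55.02 and 82.8. The Foxa2 scores of 19 to 21 lie at the lowest values that the list holds.

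The pairs with Foxa2 furthest ahead mirror this in rank by the same choice, and 4 of the 5 had no Neurod1 site. At chr15:21640547-21640758 the Insm1 score was 76, the lowest of the list, and the Foxa2 score was 375 (percentile 98.7), and this pair held a Neurod1 site. The others were at chr13:34338778-34338982 (Insm1 score 78, Foxa2 score 312), at chr10:68628732-68628937 (79 and 319), at chr4:9613716-9613918 (80 and 374) and at chr9:50729697-50729844 (77 and 236). Summits in these 5 pairs were 8 to 65 bp apart.

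Neurod1 was not used to form or rank the pairs. A pair counted as holding Neurod1 when a Neurod1 site overlapped either member. In shares of sites rather than pairs, only the site's own overlap counted. Neurod1 was present at 6596 of the 9768 pairs (67.5%, 66.6 to 68.4%). Pairs with Insm1 ahead by 50 points held Neurod1 in 336 of 436 cases (77.1%, 72.9 to 80.8%), and pairs with Foxa2 ahead held it in 538 of 1221 (44.1%, 41.3 to 46.9%). The difference was 33.0 points (28.0 to 37.6 points, Newcombe). With only sites above the median score of each list it was 21.2 points (13.97 to 27.98). Concordant pairs, with percentiles within 10 points, held Neurod1 in 2111 of 2700 cases (78.2%, 76.6 to 79.7%), about as often as pairs with Insm1 ahead. Their Insm1 and Foxa2 members had median percentiles of 81.6 and 82.2. Neurod1 was present at 95.9% (94.1 to 97.1%) of the pairs in the top decile of both lists and at 9 of the 51 pairs in the bottom decile of both (17.6%, 9.57 to 30.3%).

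The Neurod1 share spanned a wider range along the Insm1 percentile than along that of Foxa2. Among pairs with the Foxa2 member in its top quartile, Neurod1 was found at 40.8% when the Insm1 member was in its bottom quartile, at 60.2% and 76.9% in the next quartiles, and at 91.9% in the top quartile. Among pairs with the Insm1 member in its top quartile, the share was 78.7% with Foxa2 in its bottom quartile, 77.7% and 85.0% in the next quartiles, and 91.9% in the top quartile. In the bottom quartile of Insm1, the share went from 31.5% to 40.8% along Foxa2. Where Neurod1 was present, its own percentile had a rho of 0.51 with the Insm1 percentile and 0.24 with the Foxa2 percentile over 6596 pairs. The 3 lists come from the same cells and may share background of the chromatin; its part in these shares was not tested.

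**Figure D2:**
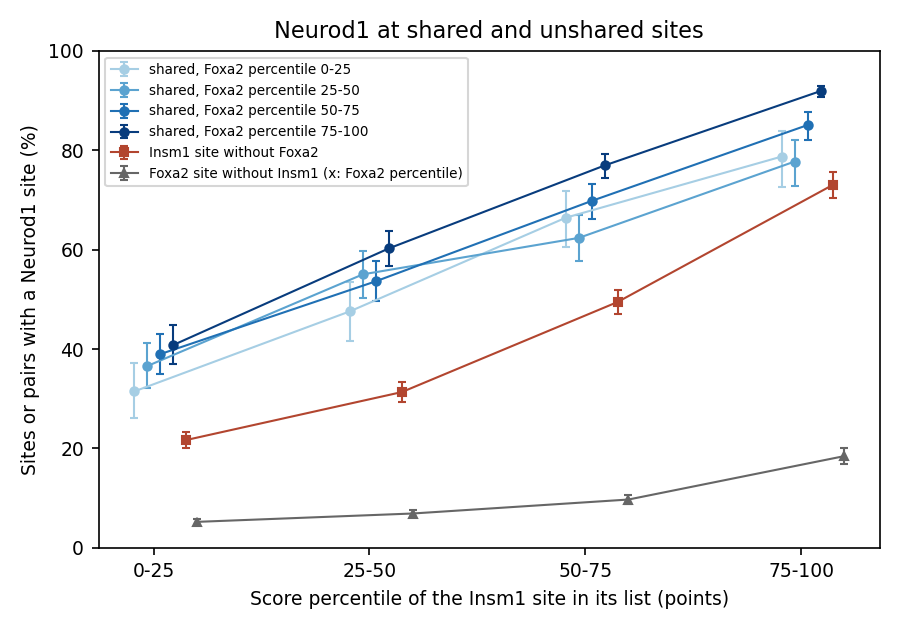
Share of sites or pairs with a Neurod1 site (y axis, %, with 95% Wilson intervals) by quartile of the Insm1 percentile (x axis), for pairs in 4 quartiles of the Foxa2 percentile, for Insm1 sites without Foxa2, and for Foxa2 sites without Insm1 by quartile of their own percentile. The lines of shared pairs climb from 31.5 to 40.8% on the left to 77.7 to 91.9% on the right, while Foxa2 sites without Insm1 reach 18.4%. A pair counts Neurod1 at either member, an unshared site at its own stretch only.

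Discordant pairs can be set beside unshared sites of like rank. Insm1 sites in the top quartile that had no Foxa2 site held Neurod1 in 73.1% of cases (70.3 to 75.7%, of 1070 sites), compared with 78.7% (72.6 to 83.8%, of 202 pairs) when a Foxa2 site of the bottom quartile was present. These intervals overlap. Foxa2 sites in the top quartile that had no Insm1 site held Neurod1 in 18.4% (16.9 to 20.1%, of 2282 sites), compared with 40.8% (36.9 to 44.8%, of 591 pairs) when an Insm1 site of the bottom quartile was present. These intervals do not overlap. In both comparisons, however, a pair was counted over both members and an unshared site over its own stretch alone, which by itself favours the pairs. How much of the differences this makes up was not tested.

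Concordance showed little in the shape of the sites. The median distance between the summits of a pair was 40 bp over all pairs, 40 bp in concordant pairs, 39.5 bp with Insm1 ahead and 38 bp with Foxa2 ahead. Summits lay within 25 bp of each other in 41.5% (37.9 to 45.2%) of pairs in the top decile of both lists, at a median of 34 bp, and in 32.3% (29.5 to 35.2%) of pairs whose lower percentile was 10 or less, at a median of 41 bp. Insm1 sites were 172 bp wide at the median where Insm1 was ahead, 185 bp where Foxa2 was ahead and 190 bp in concordant pairs. The lead and the difference in width had a rho of -0.03.

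Strong sites of one factor without the other were a minority of the top of each list. In the top decile of the Insm1 list, with scores of 265 and above, 313 of 1735 sites had no Foxa2 site (18.0%, 16.3 to 19.9%). In the top decile of the Foxa2 list, with scores of 140 and above, 533 of 2821 had no Insm1 site (18.9%, 17.5 to 20.4%). The bottom deciles differed more, since 61.3% of Insm1 sites and 86.8% of Foxa2 sites there were unshared. With the Foxa2 list limited to as many best-scoring sites as the Insm1 list, the unshared shares of the top deciles were 24.1% for Insm1 and 16.3% for Foxa2. With summits within 100 bp as the rule for sharing they were 27.9% and 28.6%.

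These strong unshared sites differed in Neurod1. Of the 313 Insm1 sites, 254 held Neurod1 (81.2%, 76.4 to 85.1%), and of the 533 Foxa2 sites, 143 did (26.8%, 23.2 to 30.7%), a difference of 54.3 points (48.2 to 59.7 points, Newcombe). The shares among top-decile sites that were shared were 91.4% and 82.6%. Across the deciles of the Insm1 list, the Neurod1 share of unshared sites ran from 17.9% to 81.2%. Across those of the Foxa2 list it ran from 4.41% to 26.8% for unshared sites and from 52.5% to 82.6% for shared sites. Over all ranks, Neurod1 lay at 38.1% of the 7614 unshared Insm1 sites and at 8.47% of the 18340 unshared Foxa2 sites.

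**Figure D3:**
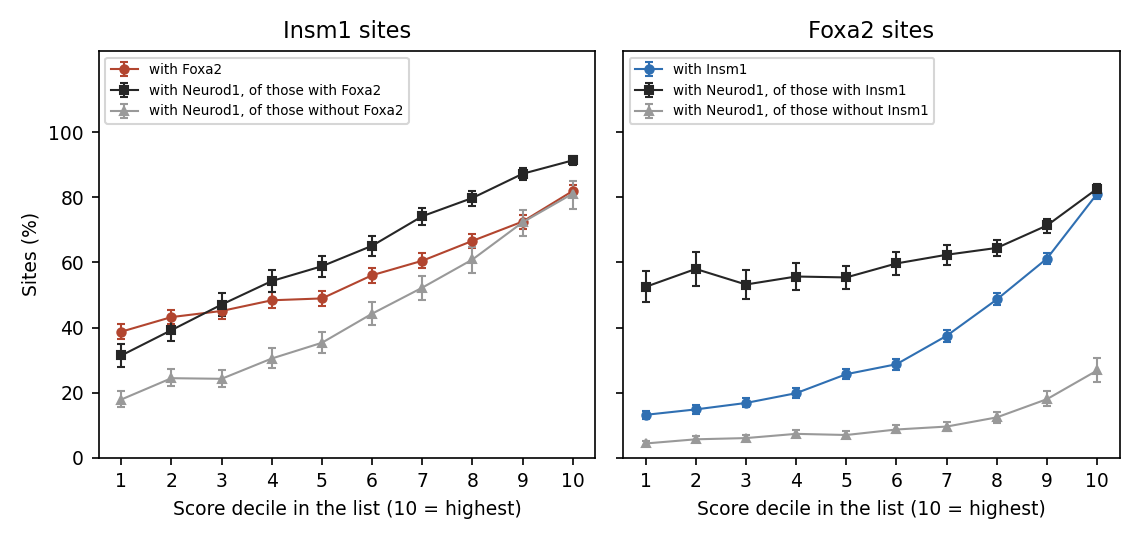
Share of sites (y axis, %, with 95% Wilson intervals) by score decile of the Insm1 list (left) and the Foxa2 list (right): sites with the other factor, and sites with Neurod1 among those with and without it. The right end of the grey line, for unshared sites, is at 81.2% for Insm1 and at 26.8% for Foxa2.

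The strongest unshared Insm1 site lay at chr11:86665395-86665541 (score 1211, rank 11). A Foxa2 site of rank 748 had its summit 443 bp away. The second lay at chr13:116136946-116137192 (score 1054, rank 18), and its nearest Foxa2 summit, 436 bp away, was the second strongest of the whole Foxa2 list (score 1265). That Foxa2 site, at 116136512 to 116136731, is itself unshared, so 2 of the strongest sites of the lists stood side by side without overlap. The Insm1 site of this couple held Neurod1 at percentile 99.9, and the Foxa2 site held none. The other 3 were at chr1:155997401-155997549 (score 1038), at chr16:87432941-87433117 (885) and at chr3:45036142-45036311 (752), at 32867, 61187 and 6114 bp from the nearest Foxa2 summit. All 5 held Neurod1.

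The strongest unshared Foxa2 site lay at chr9:35112943-35113007, with a score of 11035. It was only 64 bp wide, just inside the width limit, and the next Foxa2 site in the whole list scored 1265. After the site on chromosome 13, the others were at chr15:93219614-93219903 (score 1075), at chr12:39755876-39756091 (1033) and at chr2:146191394-146191612 (889). Their nearest Insm1 summits lay 9147, 319 and 2581 bp away, and the last 2 of these Insm1 sites were strong, with percentiles of 96.5 and 98.3. Neurod1 was present at the sites on chromosomes 15 and 12 and absent from the other 3.

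Unshared sites close to the other factor were more frequent among strong sites. A Foxa2 summit lay within 500 bp of 475 of the 7614 unshared Insm1 sites (6.24%, 5.72 to 6.80%), of 17.9% (14.04 to 22.5%) of those in the top decile and of 3.42% (2.47 to 4.73%) of those in the bottom decile. An Insm1 summit lay within 500 bp of 2.59% of unshared Foxa2 sites, of 12.6% (10.0 to 15.7%) of those in the top decile and of 1.16% (0.82 to 1.63%) in the bottom decile. Within 10 kb the other factor was found for 49.5% of top-decile unshared Insm1 sites and 37.0% of top-decile unshared Foxa2 sites. Over all unshared sites these shares were 36.4% and 25.9%. Insm1 sites were searched against the longer list, of 28108 sites, and Foxa2 sites against 17382, so the shares of the 2 factors are not on equal terms. Among top-decile unshared sites with no summit of the other factor within 10 kb, the Neurod1 difference was 60.8 points (52.7 to 67.35), against 54.3 points over all of them.

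Sites of 1 factor rarely lay within 1 kb of each other, which occurred for 17 neighbouring Insm1 summits and 58 neighbouring Foxa2 summits. The smallest spacing was 489 bp for Insm1 and 624 bp for Foxa2. The median spacing from a summit to the next of the same list was 55247 bp for Insm1 (53677 to 56775 bp) and 37967 bp for Foxa2 (36944 to 38738 bp). The shorter spacing of Foxa2 went with its longer list. When the Foxa2 list was limited to the length of the Insm1 list, its median spacing was 60939 bp. A neighbour of the same factor lay within 10 kb for 25.5% of Insm1 sites (24.8 to 26.1%) and for 35.9% of Foxa2 sites (35.3 to 36.4%), or 27.1% with the lists of equal length.

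Shared Foxa2 sites lay closer to their neighbours than unshared ones, while the measures for Insm1 disagreed. Shared Foxa2 sites had a median distance of 14335 bp to the nearest Foxa2 summit and unshared ones 18316 bp, and the shares with a neighbour within 10 kb were 39.4% (38.5 to 40.4%) and 34.0% (33.3 to 34.6%). For Insm1 the distances were 25002 and 26080 bp, and the shares 26.7% (25.8 to 27.6%) and 23.8% (22.9 to 24.8%). The median spacing to the next Insm1 summit, shared or not, was 57224 bp (54884 to 59689 bp) from shared Insm1 sites and 53036 bp (51201 to 55322 bp) from unshared ones. For Foxa2 it was 32408.5 bp (31271 to 33651 bp) and 41217 bp (39969 to 42339 bp). Distance also went with rank in both lists. The median to the nearest Foxa2 summit was 19067 bp in the bottom decile and 13086 bp in the top decile. The shares with a neighbour within 10 kb there were 33.3% and 42.6%. For Insm1 the distances were 27541 and 21018 bp. The Insm1 shares were 25% (22.98 to 27.1%) and 28.0% (25.9 to 30.2%), with overlapping intervals. Shared sites rank higher than unshared ones for Foxa2 (median percentiles 73.8 and 39.0) and for Insm1 (59.9 and 38.6), and sharing was not separated from rank here. The longer Foxa2 list also held more and longer runs. When summits at most 10 kb apart were joined, the Foxa2 list held 89 runs of 5 or more sites and a longest run of 13, and the Insm1 list held 10 such runs and a longest run of 6. With the Foxa2 list limited to the length of the Insm1 list, it held 28 runs of 5 or more sites. The 3 longest Insm1 runs were at chr2:147787454-147825860, at chr4:149494381-149513413 and at chr7:30768699-30794961. The run on chromosome 4 includes the third strongest concordant pair.

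The ranks of neighbouring sites were nearly unrelated. For same-factor neighbours within 10 kb, the rho of their percentiles was 0.04 for Insm1 (2412 neighbours) and 0.04 for Foxa2 (5795 neighbours). The leads of neighbouring pairs within 10 kb had a rho of 0.07 (946 neighbours) and those of pairs 10 to 100 kb apart 0.04 (3871 neighbours).

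The densest 100 kb window of the Insm1 list and that of the Foxa2 list overlapped on chromosome 2. The Insm1 window, with summits from 146104566 to 146202199, held 11 Insm1 sites. The Foxa2 list reached its maximum of 14 sites in 2 overlapping windows, the first with summits from 146040682 to 146136159. Over the joined stretch of 162 kb lay 13 Insm1 and 18 Foxa2 sites, which formed 10 pairs and left 3 Insm1 and 8 Foxa2 sites unshared. Ranks in it were mixed. Insm1 percentiles ran from 15.4 to 99.4 with a median of 64.1, and Foxa2 percentiles from 4.79 to 99.9 with a median of 65.1.

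Leads of the 10 pairs in this stretch ran from -66.5 to 68.0 points. At 146116753 to 146116922 the Insm1 percentile was 83.5 and the Foxa2 percentile 15.6, with Neurod1 present. Further along, at 146151133 to 146151335, the percentiles were 15.4 and 81.9, with Neurod1 absent. The strongest Insm1 site of the stretch, at 146136167 to 146136337 (score 622), met a Foxa2 site of percentile 67.9. The strongest Foxa2 site of the stretch is the unshared site of score 889 named above, and an unshared Insm1 site of percentile 98.3 lay 2581 bp from it. Neurod1 was found at 5 of the 10 pairs.

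**Figure D4:**
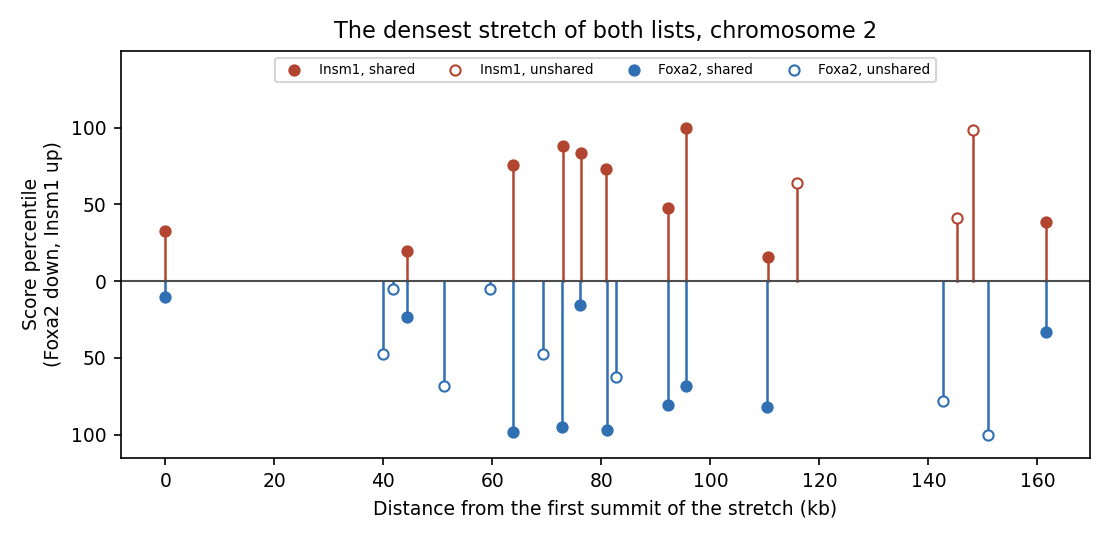
The 162 kb stretch of chromosome 2 that holds the densest windows of both lists, with the distance from its first summit on the x axis (kb) and the score percentile on the y axis, upward for Insm1 and downward for Foxa2. Filled points are shared sites and open points unshared sites; paired sites of unequal height stand beside pairs of like height, and leads run from -66.5 to 68.0 points.

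Over 1 Mb bins the numbers of sites of both factors went together. Across 2585 bins between the first and last site of each chromosome, the rho of the site numbers was 0.81, a description over bins that share the mappability of the genome, which was not measured. A bin held a median of 5 Insm1 sites (quartiles 2 and 10) and 10 Foxa2 sites (5 and 15). Unshared sites alone gave a rho of 0.47. Foxa2 sites were the more numerous in 2051 bins and Insm1 sites in 276. Foxa2 stood without Insm1 in 224 bins, and Insm1 without Foxa2 in 13. Of the 291 bins with 15 or more Insm1 sites, 130 (44.7%) were also among the 260 bins with 22 or more Foxa2 sites, of which they made up 50%. These groups are 291 and 260 of all 2585 bins. The site numbers include the shared pairs, which add a site to both lists, as a rule in the same bin. That by itself favours the overlap.

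The bins richest in Insm1 were on chromosome 8 from 129 to 130 Mb, with 32 Insm1 and 44 Foxa2 sites, on chromosome 4 from 131 to 132 Mb, with 31 and 34, and on chromosome 5 in the bin that starts at 124 Mb, with 31 and 28. The richest in Foxa2 were on chromosome 18 from 55 to 56 Mb, with 47 Foxa2 and 22 Insm1 sites, on chromosome 3 from 51 to 52 Mb, with 46 and 30, and the same bin of chromosome 8. Among the 1036 bins with at least 20 sites, Insm1 made up a median of 40% of the sites. The highest Insm1 shares were on chromosome 10 from 80 to 81 Mb (82.1%, 23 Insm1 and 5 Foxa2 sites), on chromosome 15 from 76 to 77 Mb (76.7%) and on chromosome 2 from 26 to 27 Mb (74.2%). The lowest were on chromosome 10 from 53 to 54 Mb (13.6%, 3 Insm1 and 19 Foxa2 sites), on chromosome 16 from 46 to 47 Mb (13.8%) and on chromosome 17 from 11 to 12 Mb (16.0%).

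Bins with more Insm1 among their unshared sites held shared pairs with a higher lead, and the Foxa2 percentile of the pairs differed more between these bins than that of Insm1. The 1386 bins with at least 3 pairs and 5 unshared sites were divided into quintiles by the Insm1 share of the unshared sites, which are different sites from the pairs. The mean lead in a bin had a median of -17.1 points in the lowest quintile, and of -11.3, -8.97, -8.11 and -2.67 points in the next quintiles. Insm1 was ahead by 50 points in 2.33% (1.69 to 3.21%) of pairs in the lowest quintile and in 7.66% (6.48 to 9.02%) in the highest. Foxa2 was ahead by as much in 16.0% (14.2 to 17.9%) and 8.96% (7.69 to 10.4%). From the lowest to the highest quintile, the median Foxa2 percentile of the pairs was 77.2, 76.9, 74.3, 72.7 and 66.6. The median Insm1 percentile was 56.2, 63.7, 60.5, 62.7 and 61.65, and was lowest in the first quintile, with no order among the others. The rho over bins was 0.32, and it was 0.20 with the Foxa2 list limited to the length of the Insm1 list. It was 0.31 when unshared sites within 10 kb of the other factor were left out.

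**Figure D5:**
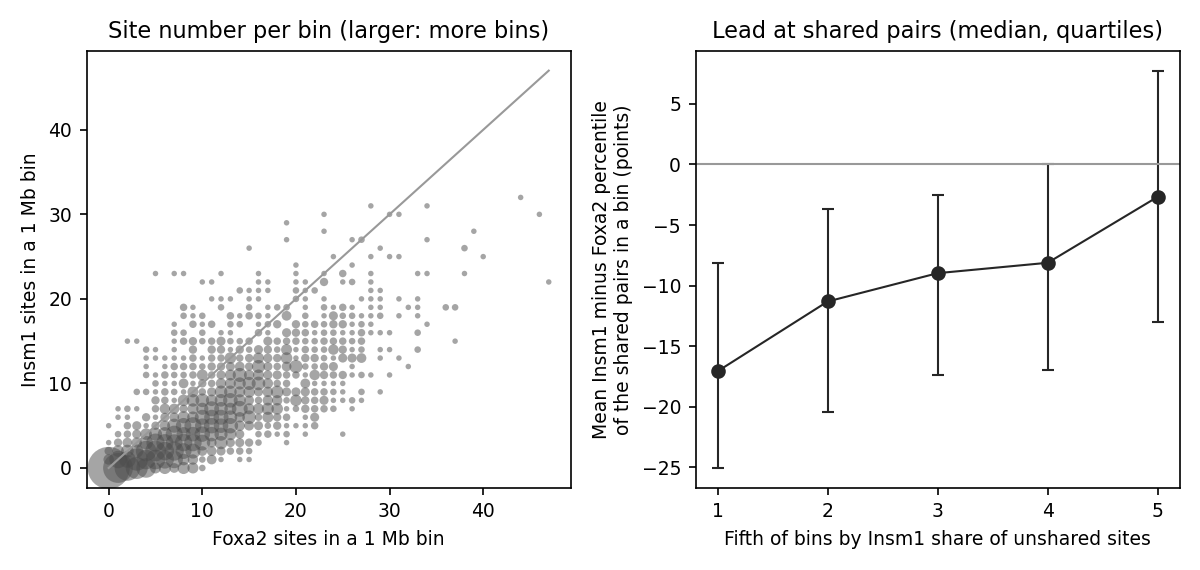
Left, Insm1 sites (y axis) against Foxa2 sites (x axis) in 1 Mb bins, where larger points stand for more bins and the line marks equal numbers; most bins lie under the line. Right, mean Insm1 minus Foxa2 percentile of the shared pairs in a bin (y axis, points; medians with quartiles over bins) by quintile of bins by the Insm1 share of their unshared sites, with medians from -17.1 to -2.67 points.

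Chromosomes with fewer Insm1 sites per Foxa2 site tended to hold pairs with a lower lead. The lead alone does not show which factor's percentile differed. The median lead ran from -18.9 points on X (interval -26.2 to -14.3, from order statistics) and -13.4 on chromosome 6 (-16.4 to -9.78) to -5.40 on chromosome 11 (-7.59 to -3.00) and -5.02 on chromosome 15 (-8.79 to -1.88). There were 0.27 Insm1 sites per Foxa2 site on X, 0.53 on chromosome 6, 0.65 on chromosome 15 and 0.80 on chromosome 11, so the chromosome with the highest median lead was not the one with the highest ratio. Over the 20 chromosomes with sites of both lists, the rho of this ratio and the median lead was 0.80, and 0.77 without X, as a description. On X, 71.6% (64.4 to 77.9%) of the 169 Insm1 sites and 19.5% (16.6 to 22.9%) of the 619 Foxa2 sites were shared. On chromosome 11 these shares were 47.5% and 38.0%.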

How the data were processed

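ChIP-seq of Insm1, Foxa2 and Neurod1 in a mouse beta cell line gave 1 deposited site list per factor. The tools named, per the submitters' processing notes, are MACS 1.4, Bowtie 0.12.7 and CASAVA, with build mm9. Not given in the sources used here: settings, threshold, control and the use of repeats. The design text counts 6 samples, with repeats of Insm1 and Foxa2, and how these entered the lists is unknown. The lists have no header, and the site score, a whole number deposited by the authors, has no stated definition. It was used only to rank sites within a list. Depth is unknown.

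Sites of 60 bp or less were dropped. Percentiles are 100 times the average rank divided by the number of sites kept. Sharing means an overlap of at least 1 bp. Shares carry Wilson intervals and their differences Newcombe intervals. Medians of spacing and lead carry order-statistic intervals. No test was run, since each group is 1 deposited sample with 1 list. Sites are not independent. Named sites are the 5 pairs with the highest lower percentile, the 5 with the largest lead of either factor, the 5 strongest unshared sites per list, the densest 100 kb windows and the 3 most extreme 1 Mb bins per criterion. Runs of sites, leads by bin and chromosome, the Neurod1 share of unshared sites and distances of unshared sites were chosen after seeing the data. Neurod1 shares by quartile and rank correlations with the Neurod1 percentile were not planned beforehand either. The same holds for site widths, summit distances in pairs, ranks of neighbours, and spacing by sharing or rank. The members, comparisons and lists were chosen with earlier results of these data known. Overlap counts were checked with bedtools and on simulated lists. Scripts ran under Python 3.11.15 with pandas 2.3.3, numpy 2.4.6, scipy 1.17.1 and matplotlib 3.10.9.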

Additional observations from a re-analysis of the deposited data

How the results depend on the processing

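Over 17 summary values and 95 alternative values, of which 14 were chosen after seeing the data, 44 moved outside the interval of the main value (for a count, by over 1.5 times) and 51 did not. Of these 51, 8 equal the main value by construction. The order of Insm1 and Foxa2 turned for pairs ahead by 50 points with percentiles over the pairs alone, and for unshared top deciles and spacing with lists of equal length. With summits within 100 bp as the rule, 48.4% of Insm1 and 29.9% of Foxa2 sites were shared, and 27.9% and 28.6% of the top deciles were unshared. With an overlap of 50% of the narrower site, the values were 54.4% and 33.6%, and 20.1% for the Insm1 top decile. Among sites above the median score, 53.9% and 33.2% were shared, 20.8% and 25.8% of the top deciles were unshared, the rho of the pairs was 0.28, 25.4% of pairs were within 10 points, Insm1 was ahead in 5.33%, and the Neurod1 difference was 21.2 points. There the spacings were 115246 bp (Insm1) and 75310 bp (Foxa2), with neighbours within 10 kb for 15.3% and 23.3%, as fewer sites were kept.

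With the Foxa2 list limited to the length of the Insm1 list, 46.4% of the sites of either list were shared, 24.1% and 16.3% of the top deciles were not, Insm1 was ahead in 6.43% and Foxa2 in 8.71% of pairs, Foxa2 spacing was 60939 bp, 28 Foxa2 runs had 5 or more sites, 27.1% of Foxa2 sites had a neighbour within 10 kb, and the rho over bins was 0.77 for site numbers and 0.20 for leads. With percentiles over the pairs alone, 26.2% of pairs were within 10 points, and Insm1 was ahead in 7.57% and Foxa2 in 7.01%. A limit of 20 points gave 47.2% within it. A limit of 40 points gave 7.32% with Insm1 ahead, 18.9% with Foxa2 ahead and a Neurod1 difference of 25.2 points. The rho of site numbers was 0.78 in bins of 500 kb, 0.83 in bins of 5 Mb, 0.78 in bins with a site, 0.79 without X and 0.47 for unshared sites. The rho of leads was 0.56 in bins of 5 Mb. Away from the other factor by over 10 kb, the Neurod1 difference of unshared sites was 60.8 points. Where no value shows it, the cause was not tested. Keeping the narrow sites moved none of the 16 values run with it outside the interval. No paired analysis was possible because each group is 1 sample. The unknown depth and score definition, and the missing replicates, limit every comparison.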
